A study of Mus musculus with 8 samples.

Results

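The genes described here are 10 C-type lectin receptors of myeloid cells, Clec4a1, Clec4a2, Clec4a3, Clec4d, Clec4e, Clec4n, Clec5a, Clec7a, Clec12a and Clec10a. They were chosen by gene symbol, and all 10 were found among the 16486 genes of the expression table. Bulk RNA-Seq values were analysed for 8 libraries of blood monocytes (MCs) that had been sorted as CD11b+ Ly6G- cells with high or low Ly6C, the surface protein that separates classical from nonclassical mouse MCs. Control (CT) mice were wild type C57/BL6. In the T1DM model, mice of this strain received streptozotocin (STZ), which kills pancreatic beta cells, and in the T2DM model db/db mice were used, which are homozygous for a leptin receptor mutation. The STZ dose was 50 mg/kg into the peritoneum, once a day on 5 days, beginning at an age of 8 weeks. All mice were males on normal chow, and blood was taken at 20 to 22 weeks of age. CT mice gave 2 libraries of each subset and each diabetic model gave 1 library of each subset. The study's methods describe sequencing in duplicate, and second libraries of the diabetic groups were not analysed here. RNA of 5 mice was pooled for a group, so a library is not a single mouse, and the spread between CT replicates may be technical and need not contain the spread between mice. The sequencer was a NextSeq 500 for CT and a HiSeq 4000 for both diabetic models, and its part in any difference between diabetic and CT MCs cannot be told apart from that of diabetes.

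C-type lectin receptors are membrane proteins whose extracellular domain binds sugars, lipids or proteins of microbes and of damaged cells. Some of them activate the cell, either through an immunoreceptor tyrosine-based activation motif (ITAM) in a partner adaptor, such as the Fc receptor gamma chain or DAP12, or through a related motif in their own tail, and the kinase Syk and the adaptor Card9 then carry the signal. Others hold an inhibitory motif (ITIM), which recruits phosphatases. On MCs and neutrophils these receptors are known for the recognition of fungi, mycobacteria and dead cells.

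Of the 10 genes, 9 lie on chromosome 6 and Clec10a lies on chromosome 11 (chr11:70166623-70170836), by the RefSeq annotation of mouse build GRCm38.p6. Clec4a1, Clec4a3, Clec4a2, Clec4n, Clec4d and Clec4e lie in this order in 368 kb (chr6:122921848-123289871), the Dectin-2 gene cluster. Clec12a and Clec7a lie within 123 kb of each other (chr6:129349783-129472785), and Clec5a lies by itself at chr6:40574898-40585805. Reads are assigned to transcripts by sequence, so near-identical genes can share them. Among the 31-base sequences of its transcripts, Clec10a shared 14.8% with other genes, mainly its neighbour Mgl2, and Clec4a2 shared 10.9%, in part with Clec4a4, so the levels of these genes are less certain. The share was at most 2.19% for the other 8 genes.

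RefSeq promoter windows, which run from 250 bases before an annotated transcript start to 50 bases after it, were found for 8 of the 10 genes, and not for Clec4n and Clec10a. The windows of the 5 genes that passed the test between the MC subsets over all libraries are printed 5′ to 3′ on the strand of the gene, to show what stands in front of the genes whose levels parted most clearly. Capitals mark matches to GAGGAA (a core of binding sites of the ETS family, to which the myeloid factor PU.1 belongs), TTGCNNAA (C/EBP factors) or TGANTCA (AP-1), searched on both strands, so that TTCCTC is GAGGAA on the other strand. No match overlapped another. The transcript start of the Clec12a window lies 461 bases inside the span of the gene given above, and that of the printed Clec7a window lies 6 bases inside it. The windows lie at chr6:40585756-40586055 (minus strand) for Clec5a, chr6:123122440-123122739 (plus) for Clec4a2, chr6:129472730-129473029 (minus) for Clec7a, chr6:123261857-123262156 (plus) for Clec4d and chr6:129349994-129350293 (plus) for Clec12a.
Clec5a: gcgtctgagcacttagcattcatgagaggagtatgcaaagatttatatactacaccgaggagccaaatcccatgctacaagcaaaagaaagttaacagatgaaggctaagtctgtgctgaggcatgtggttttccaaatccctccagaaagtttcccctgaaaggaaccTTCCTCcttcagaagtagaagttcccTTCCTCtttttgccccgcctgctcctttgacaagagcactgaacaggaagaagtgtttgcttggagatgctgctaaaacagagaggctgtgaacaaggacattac
Clec4a2: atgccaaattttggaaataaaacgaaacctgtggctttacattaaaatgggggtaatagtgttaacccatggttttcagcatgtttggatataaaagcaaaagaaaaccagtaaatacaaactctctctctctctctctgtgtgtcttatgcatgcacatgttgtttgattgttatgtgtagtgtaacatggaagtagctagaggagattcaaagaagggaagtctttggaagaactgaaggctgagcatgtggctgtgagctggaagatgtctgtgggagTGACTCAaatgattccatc
Clec7a: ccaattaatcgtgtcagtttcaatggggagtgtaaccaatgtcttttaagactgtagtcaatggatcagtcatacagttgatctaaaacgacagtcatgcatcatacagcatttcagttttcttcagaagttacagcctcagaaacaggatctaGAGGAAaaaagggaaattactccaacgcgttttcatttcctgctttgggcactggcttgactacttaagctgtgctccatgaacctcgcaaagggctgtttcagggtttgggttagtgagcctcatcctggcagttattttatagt
Clec4d: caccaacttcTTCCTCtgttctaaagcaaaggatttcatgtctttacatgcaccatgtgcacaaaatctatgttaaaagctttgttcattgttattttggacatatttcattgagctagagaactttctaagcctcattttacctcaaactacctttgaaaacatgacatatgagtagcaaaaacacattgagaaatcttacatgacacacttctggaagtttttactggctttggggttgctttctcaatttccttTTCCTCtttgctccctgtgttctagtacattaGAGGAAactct
Clec12a: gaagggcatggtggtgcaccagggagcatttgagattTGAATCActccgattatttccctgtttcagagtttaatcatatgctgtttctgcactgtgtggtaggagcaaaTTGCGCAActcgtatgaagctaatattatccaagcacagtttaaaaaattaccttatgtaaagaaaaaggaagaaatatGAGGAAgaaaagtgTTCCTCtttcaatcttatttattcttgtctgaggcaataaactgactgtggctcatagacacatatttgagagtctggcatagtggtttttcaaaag
The 8 genes have 10 windows, since Clec4a3 and Clec7a have a second one. GAGGAA stood in 8 of the 10, against 28.3% of the 32851 promoter windows of this length, and in a window of 7 of the 8 genes, against 31.3% of the 27025 genes with a window. In Clec4a3 it stood in the second window alone. In Clec5a it occurred 81 and 55 bases before the start, and in Clec7a 96 bases before it. Clec4a2 was the gene without it and held an AP-1 match 31 bases after its start instead. TTGCNNAA stood in 2 of the 10 windows (Clec4e and Clec12a) and in 10.8% of all windows, and TGANTCA in 2 (Clec4a2 and Clec12a) and in 7.81% of all. These matches describe the sequence, and binding was not measured.

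All values are deposited log2 expression values. The methods name gene counts and TPM, but the sources used here do not tie the deposited values to either, so levels were compared within a gene only, and depth is unknown. Itgam, Csf1r, Adgre1 and Cd68 are called MC gate genes here, although of these only Itgam, which encodes CD11b, was a marker of the sort. They were present in every library, with summed linear values of 3586 to 3792 (Ly6C-high) and 1941 to 2267 (Ly6C-low). Markers of classical MCs summed to 9799 to 25768 in Ly6C-high and 1076 to 1385 in Ly6C-low libraries. The 10 markers of nonclassical MCs parted the subsets less, at 1426 to 2806 against 3104 to 4021. In CT mice alone they summed to 2781 to 2806 in Ly6C-high and 3104 to 3113 in Ly6C-low libraries. Not all of them were lower in Ly6C-high MCs, and Cx3cr1 was higher there in CT mice, by 0.83 in log2. The 8 B cell markers summed to 57.2 to 120 in Ly6C-high libraries but to 1713 to 2273 in Ly6C-low libraries, and the 6 NK cell markers to 21.9 to 92.9 against 130 to 714. The neutrophil markers, 8 of them in the table, summed to 462 to 850 in Ly6C-high and 147 to 306 in Ly6C-low libraries. Most of each sum came from Csf3r, at log2 values of 8.66 to 9.36 in Ly6C-high and 6.86 to 7.51 in Ly6C-low libraries. The median log2 difference of the 8 markers, Ly6C-high minus Ly6C-low, was -0.40 in CT mice and 0.52 over 8 libraries. The part of these cells in the subset differences was not tested directly, and fewer cells of a type and less RNA per cell cannot be told apart in bulk samples.

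All 10 receptor genes had a higher mean level in Ly6C-high than in Ly6C-low MCs, both in the 4 CT libraries and over the 8 libraries, where mouse group was a covariate, although relative to the MC gate genes the direction turned for Clec4a1, Clec4e and Clec4n in CT mice and for Clec4a1 and Clec10a over 8 libraries (log2FC of -0.45 to -0.06). Over the 8 libraries, 5 of the 10 were DEG (adjusted p under 0.01 and more than a 2-fold difference, limma with Benjamini-Hochberg adjustment over all genes), all higher in Ly6C-high MCs. The largest difference was that of Clec5a, at 14.7-fold, followed by Clec4a2 at 7.18-fold, Clec7a at 5.47-fold, Clec4d at 4.36-fold and Clec12a at 2.85-fold. Of all genes, 12.1% were DEG in this test, and 5.37% were DEG with a higher level in Ly6C-high MCs. Without the limit on fold, 8 of the 10 genes passed, against 20.3% of all genes. The median log2FC was 1.31 for the 10 receptor genes and -0.08 for all genes tested. Every Ly6C-high library stood above every Ly6C-low library for 7 of the 10 genes, against 16.4% of all genes, and the 3 genes whose subsets overlapped were Clec4e, Clec4n and Clec10a.

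**Figure D1:**
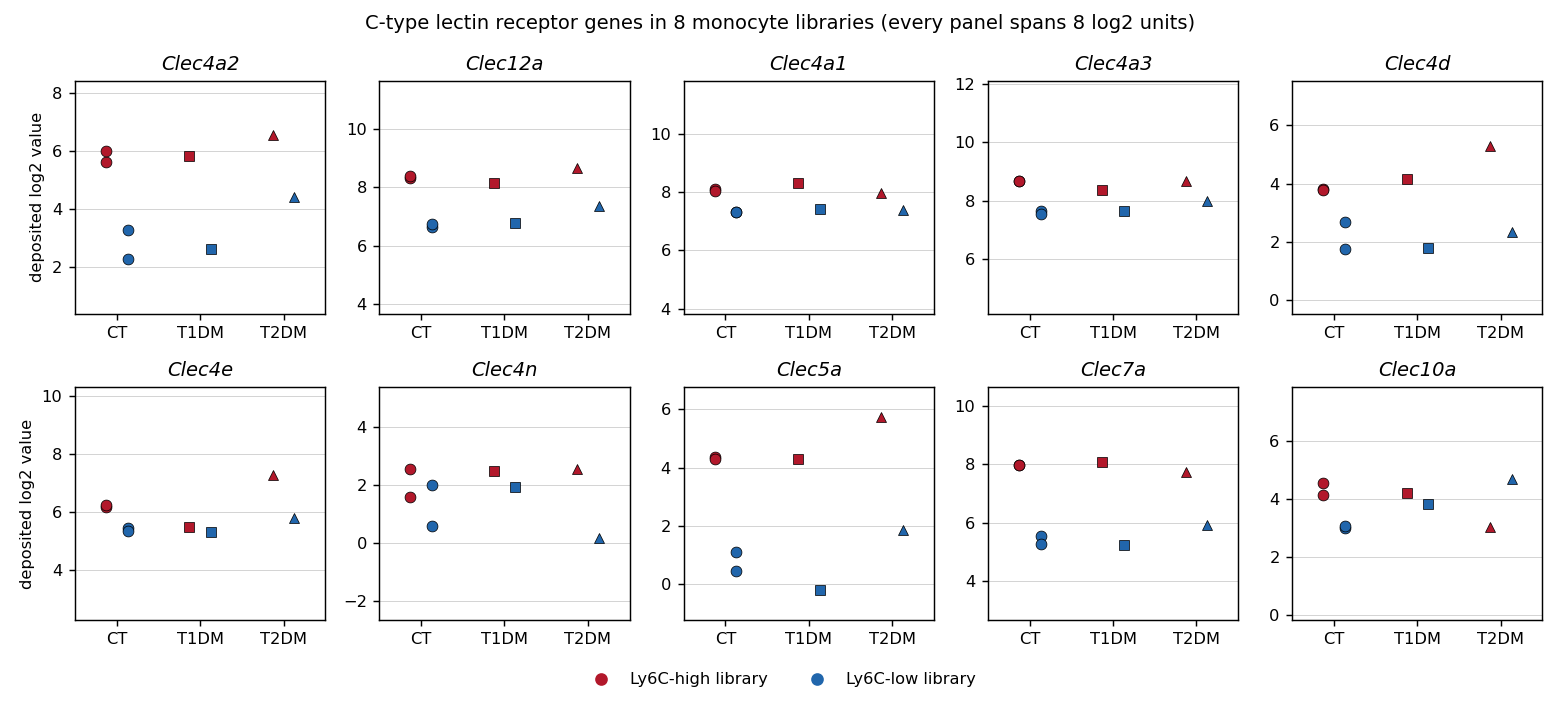
Deposited log2 value (vertical axis, a span of 8 log2 units in every panel) of each receptor gene in CT, T1DM and T2DM mice, with 1 point for a library, red for Ly6C-high and blue for Ly6C-low MCs. Every red point lies above every blue point for Clec4a2, Clec12a, Clec4a1, Clec4a3, Clec4d, Clec5a and Clec7a. Within each mouse group this also holds for Clec4e, and the order is turned for Clec10a in T2DM mice, at 3.06 against 4.70.

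In the 4 CT libraries alone, 3 of the 10 genes were DEG, against 3.52% of all genes and 2.10% with a higher level in Ly6C-high MCs. These were Clec7a (log2FC 2.58, SE 0.13, adjusted p = 0.0054), Clec12a (1.66, SE 0.06, adjusted p = 0.0042) and Clec4a3 (1.08, SE 0.05, adjusted p = 0.0052). Clec5a missed the limit on the adjusted p (log2FC 3.56, SE 0.31, adjusted p = 0.0109), and so did Clec4a2 (3.04, SE 0.41, adjusted p = 0.0235). The median log2FC was 1.46 for the receptor genes and -0.09 for all genes. With any 1 of the 4 CT libraries left out, no gene of the table was a DEG, and the adjusted p of these 3 genes was 0.0633 to 0.0847.

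The inhibitory receptors with an ITIM were both lower in Ly6C-low MCs. Clec4a2, which encodes the dendritic cell immunoreceptor DCIR, stood at 5.63 and 6.00 (CT), 5.82 (T1DM) and 6.54 (T2DM) in Ly6C-high MCs. In Ly6C-low MCs its values were 3.27 and 2.28 (CT), 2.63 (T1DM) and 4.43 (T2DM). The subsets did not overlap and differed by a log2FC of 2.84 (SE 0.26, adjusted p = 7.38e-05), and the T2DM library was the highest of its subset in both. Clec12a, a receptor for crystals of uric acid that are released by dying cells, had values of 8.33 and 8.38 (CT), 8.17 (T1DM) and 8.67 (T2DM) in Ly6C-high MCs. Its Ly6C-low values were 6.64 and 6.73 (CT), 6.76 (T1DM) and 7.36 (T2DM). The subsets did not overlap, and the log2FC of 1.51 had the smallest SE among the 5 DEG (0.09, adjusted p = 8.31e-06).

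Clec4a1 and Clec4a3, close relatives of Clec4a2 in the same gene cluster, had smaller differences. Clec4a1 was measured at 7.96 to 8.33 in the 4 Ly6C-high and at 7.32 to 7.44 in the 4 Ly6C-low libraries. Clec4a3 was measured at 8.35 to 8.67 and at 7.55 to 7.97. The subsets did not overlap for either gene, and both passed the limit on the adjusted p over 8 libraries but not that on fold (log2FC 0.74, SE 0.08, adjusted p = 0.0002 for Clec4a1, and 0.89, SE 0.10, adjusted p = 0.0002 for Clec4a3). Relative to the MC gate genes, the log2FC of Clec4a1 was -0.06 and that of Clec4a3 was 0.08.

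Clec4d, Clec4e and Clec4n of the Dectin-2 cluster signal through the Fc receptor gamma chain, and their subset differences were unequal in size and spread. Clec4d, which encodes the macrophage C-type lectin MCL, stood at 3.82 and 3.78 (CT), 4.15 (T1DM) and 5.31 (T2DM) in Ly6C-high MCs. Its Ly6C-low values were 2.68 and 1.75 (CT), 1.80 (T1DM) and 2.34 (T2DM), so the subsets were apart in each mouse group (log2FC 2.12, SE 0.31, adjusted p = 0.00095 over 8 libraries). In CT mice alone Clec4d had a log2FC of 1.59 (SE 0.39) and an adjusted p of 0.071, with the CT Ly6C-low replicates 0.93 apart. Clec4e, which encodes Mincle, a receptor for a glycolipid of mycobacteria, had values of 6.18 and 6.25 (CT), 5.50 (T1DM) and 7.27 (T2DM) in Ly6C-high MCs. In Ly6C-low MCs it stood at 5.46 and 5.35 (CT), 5.32 (T1DM) and 5.81 (T2DM). The T1DM Ly6C-high value lay below the T2DM Ly6C-low value, so the subsets overlapped, and the log2FC of 0.81 (SE 0.18, adjusted p = 0.0089) was under 2-fold and came to 0.01 relative to the MC gate genes. With any 1 CT library left out, the adjusted p of Clec4e was 0.0244 to 0.0309, and without the T1DM libraries it was a DEG (log2FC 1.03, adjusted p = 0.0043). Clec4n, which encodes Dectin-2, a receptor for fungal mannans, was at 1.57 and 2.53 (CT), 2.47 (T1DM) and 2.54 (T2DM) in Ly6C-high MCs. Its Ly6C-low values of 0.58 and 1.98 (CT), 1.94 (T1DM) and 0.17 (T2DM) covered a wider range and overlapped with them, and no difference was detectable (log2FC 1.11, SE 0.46, adjusted p = 0.0974).

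Clec5a, a receptor that pairs with the adaptor DAP12, had the widest gap between the subsets. Its values were 4.37 and 4.29 (CT), 4.31 (T1DM) and 5.73 (T2DM) in Ly6C-high MCs. The Ly6C-low values were 1.09 and 0.45 (CT), -0.21 (T1DM) and 1.85 (T2DM). The lowest Ly6C-high library stood 2.44 above the highest Ly6C-low library, and the log2FC over 8 libraries was 3.88 (SE 0.27, adjusted p = 1.56e-05). Clec7a, which encodes Dectin-1, the receptor for fungal beta-glucans, was next in this gap at 1.82. It stood at 7.98 in both CT libraries, 8.07 (T1DM) and 7.73 (T2DM) in Ly6C-high MCs, and at 5.55 and 5.25 (CT), 5.24 (T1DM) and 5.91 (T2DM) in Ly6C-low MCs (log2FC 2.45, SE 0.16, adjusted p = 1.18e-05).

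Clec10a, a lectin for galactose and N-acetylgalactosamine found on macrophages and dendritic cells (DCs), did not keep its direction between mouse groups. Its Ly6C-high values were 4.57 and 4.14 (CT), 4.23 (T1DM) and 3.06 (T2DM). Its Ly6C-low values were 2.99 and 3.07 (CT), 3.82 (T1DM) and 4.70 (T2DM). CT Ly6C-high MCs were thus above CT Ly6C-low MCs (log2FC 1.32, SE 0.22, adjusted p = 0.0331), while the T2DM libraries had the opposite order, and over 8 libraries the log2FC was 0.35 (SE 0.45, adjusted p = 0.586), or -0.45 relative to the MC gate genes.

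The MC gate genes themselves were higher in Ly6C-high MCs (Itgam log2FC 1.03, SE 0.09, adjusted p = 7.05e-05 over 8 libraries), so the differences were also computed on values from which each library's mean log2 value of these 4 genes had been taken away, an alternative chosen after the values had been seen. The median log2FC of all genes then was -0.88 over 8 libraries and -0.96 in CT mice. Clec5a (3.07), Clec4a2 (2.04), Clec7a (1.65) and Clec4d (1.32) were DEG on this scale over 8 libraries, and Clec12a had a log2FC of 0.71 (adjusted p = 0.0002), under 2-fold. In CT mice Clec5a (2.69), Clec4a2 (2.17) and Clec7a (1.71) were DEG. Clec4e was at 0.01 over 8 libraries, so on this scale the 10 genes divided into 4 with a difference beyond that of the gate genes, Clec12a with a smaller one, and 5 whose adjusted p was 0.344 to 0.955.

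**Figure D2:**
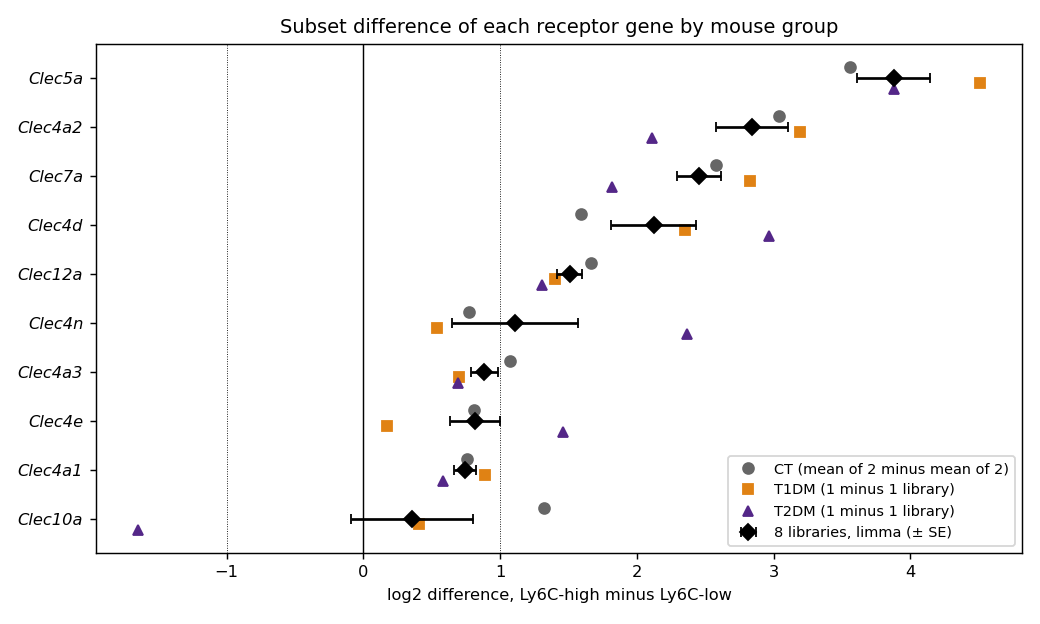
Difference of Ly6C-high minus Ly6C-low MCs in log2 units for each receptor gene (horizontal axis, dotted lines at 2-fold), with black diamonds and bars for the log2FC ± SE over 8 libraries and grey, orange and purple points for CT, T1DM and T2DM mice. Clec5a is at 3.88 over 8 libraries and past 3.5 in each mouse group, and the only point below 0 is that of Clec10a in T2DM mice at -1.65.

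Within each diabetic model the subsets have 1 library each, so these differences have no test. In T1DM mice all 10 genes had a higher value in Ly6C-high MCs and 5 were past 2-fold, against 11.0% of all genes past 2-fold in this direction. These 5 were Clec5a (4.51), Clec4a2 (3.19), Clec7a (2.83), Clec4d (2.35) and Clec12a (1.40), the 5 DEG of the test over 8 libraries, which includes these libraries. Clec4e was close to equal in the T1DM subsets, at a difference of 0.17. In T2DM mice 9 genes had a higher value in Ly6C-high MCs and 7 of them were past 2-fold, against 11.3% of all genes. Clec4e and Clec4n joined the 5 genes named, at 1.46 and 2.36, and Clec10a was past 2-fold in the other direction (-1.65). Whether the subset difference differed between diabetic and CT mice was tested for T1DM and T2DM together, so differences between the models counted as spread. None of the 10 genes was called, nor any gene of the table (0.00%, with 1084 genes at an unadjusted p under 0.05). Clec10a had the largest difference of differences, at -1.94 (SE 0.63, unadjusted p = 0.0166, adjusted p = 0.685, limma).

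T1DM MCs were within 2-fold of the CT mean for all 10 genes in both subsets, while 10.1% (Ly6C-high) and 8.81% (Ly6C-low) of all genes were past 2-fold. In T1DM Ly6C-high MCs 6 of the 8 neutrophil markers were past 2-fold higher, with a sum of 462 against 475 to 480 in CT. The largest difference of a receptor gene in Ly6C-high MCs was that of Clec4e (-0.72), with CT replicates 0.07 apart. The largest in Ly6C-low MCs were those of Clec5a (-0.98) and Clec10a (0.78). The CT Ly6C-low replicates of Clec5a were 0.65 apart, and the T1DM value lay below both. Without CT Ly6C-low replicate 2, 2 of the 10 genes were past 2-fold in T1DM Ly6C-low MCs, Clec5a at -1.30 and Clec4n at 1.36. The T1DM value lay outside both CT values by more than these differed for 6 (Ly6C-high) and 3 (Ly6C-low) of the 10 genes, against 39.7% and 39.1% of all genes. Small shifts are included, such as that of Clec7a in Ly6C-high MCs (0.09, with CT replicates 0.01 apart).

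In T2DM MCs some of these genes stood farther from CT. In Ly6C-high MCs 4 of the 10 were past 2-fold, against 13.8% of all genes. Clec4d (1.51), Clec5a (1.40) and Clec4e (1.06) were higher than the CT mean, each with CT replicates at most 0.09 apart, and Clec10a was lower (-1.30). The first 3 encode activating receptors that pair with ITAM adaptors. Clec4n, which also uses such an adaptor, was within 2-fold of the CT mean (0.49). Markers of classical MCs summed to 25768 in this library, the highest of all, against 9799 to 9940 in the CT Ly6C-high libraries, and their part in the result was not tested. The 8 neutrophil markers summed to 850 in it against 475 to 480 in CT Ly6C-high MCs, with 5 of the 8 past 2-fold higher and 1, Retnlg, past 2-fold lower. S100a8 stood at 6.90 against 1.14 and 1.15, S100a9 differed from the CT mean by 4.60 and Mmp9 by 2.61, while Retnlg was at -1.55 against 1.98 and 1.46. Most of the sum came from Csf3r, at 9.36 against 8.84 and 8.83, and the part of neutrophil RNA was not tested either. The inhibitory receptors Clec4a2 (0.73) and Clec12a (0.32) were also above both CT values in T2DM Ly6C-high MCs, and Clec7a was below them (-0.25).

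In T2DM Ly6C-low MCs 4 of the 10 genes were past 2-fold, against 10.8% of all genes. Clec10a (1.67), Clec4a2 (1.65) and Clec5a (1.08) were higher than the CT mean and Clec4n was lower (-1.10). The 8 neutrophil markers summed to 306 in this library against 147 to 159 in CT Ly6C-low MCs, with 6 of the 8 past 2-fold higher, and the 4 basophil markers, all past 2-fold higher, to 86.3 against 8.73 to 10.6. The part of these cells was not tested. The CT Ly6C-low replicates were 0.09 apart for Clec10a but 0.99 for Clec4a2, 0.65 for Clec5a and 1.40 for Clec4n. Without CT Ly6C-low replicate 2, the differences of Clec5a and Clec4n were 0.76 and -0.40, under 2-fold, and those of Clec10a and Clec4a2 were 1.71 and 1.15. Clec12a was 0.67 higher, with CT replicates 0.09 apart. The T2DM value lay outside both CT values by more than these differed for 8 of the 10 genes in each subset, against 45.3% (Ly6C-high) and 41.5% (Ly6C-low) of all genes. In Ly6C-low MCs all 8 were higher in T2DM mice, and in Ly6C-high MCs 5 of the 8 were. Small shifts are counted by this rule, such as that of Clec4a1 in Ly6C-low MCs (0.05, with CT replicates 0.01 apart).

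**Figure D3:**
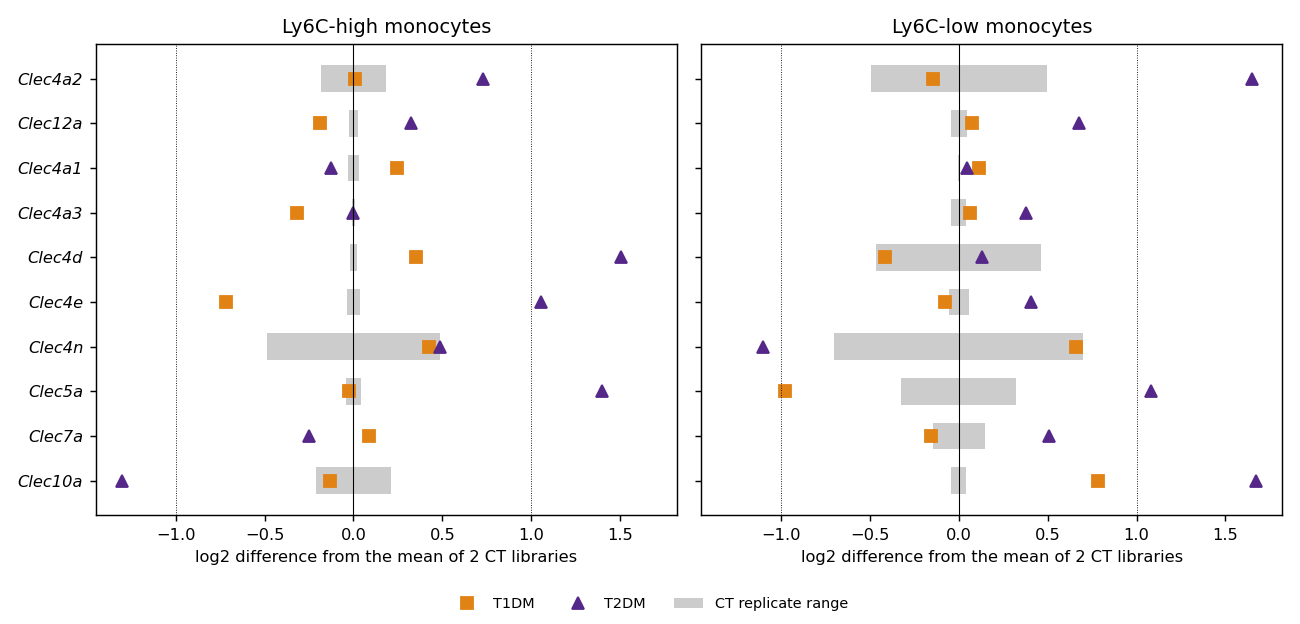
Log2 difference of the T1DM (orange squares) and T2DM (purple triangles) library from the mean of 2 CT libraries for each receptor gene, in Ly6C-high (left) and Ly6C-low MCs (right), with grey bars from the lower to the higher CT replicate and dotted lines at 2-fold. T2DM points lie past 2-fold for Clec4d, Clec4e, Clec5a and Clec10a on the left and for Clec4a2, Clec4n, Clec5a and Clec10a on the right, and no T1DM point does.

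With T1DM and T2DM MCs pooled as the diabetic group, none of the 10 genes passed the test against CT MCs in either subset, and neither did any gene of the table (0.00% in both, limma, with 739 and 489 genes at an unadjusted p under 0.05). Differences between the models count as spread in this test, with an SE of 0.49 for Clec4e and 0.72 for Clec5a. It therefore has little power to detect a change in T2DM or T1DM mice alone. The smallest unadjusted p was that of Clec10a in Ly6C-low MCs, which was higher in both diabetic libraries than in both CT libraries (log2FC 1.23, SE 0.45, unadjusted p = 0.0269, adjusted p = 1.0). The diabetic models were run on the same sequencer, and T2DM was tested against T1DM over both subsets. The fit held all 8 libraries, so its residual spread came in part from the CT libraries of the other sequencer. Each model was a single pool of mice whose subsets stood as its libraries. The p-values of this test therefore do not measure the spread between mice of a model. None of the 10 genes was a DEG, with 0.588% of all genes. The 3 genes nearest the limit were Clec5a (log2FC 1.74, SE 0.38, adjusted p = 0.0636), Clec4e (1.13, SE 0.26, adjusted p = 0.074) and Clec12a (0.55, SE 0.13, adjusted p = 0.0832), each higher in T2DM than in T1DM mice in both subsets. Clec4a2 was also higher in both (log2FC 1.25, SE 0.37, adjusted p = 0.162). Under 11 alternatives (limma) none of the 10 genes was called. The adjusted p then was 0.0423 to 0.448 for Clec5a, 0.0512 to 0.509 for Clec4e and 0.065 to 0.448 for Clec12a.

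The opposite signs of Clec10a in the T2DM subsets were set beside other C-type lectin-like genes, of which 30 of 35 listed were in the table. This pattern, lower in T2DM than in CT Ly6C-high MCs and higher in T2DM than in CT Ly6C-low MCs, past 2-fold in both, was singled out after the values had been seen. It was found for 1.22% of all genes and for 7 of the 30, which were Clec1a, Clec4b1, Clec4g, Clec9a, Cd209a, Cd209b and Mrc1. Some of these had low values or CT replicates far apart. Clec4g ranged from -2.42 to 1.57, with CT Ly6C-high replicates at 1.14 and -1.025. The CT Ly6C-low replicates of Clec1a were at 2.72 and 0.95. Cd209a, a lectin of DCs, differed from CT by -2.59 in T2DM Ly6C-high MCs and by 1.26 in T2DM Ly6C-low MCs. For Mrc1, the macrophage mannose receptor, the differences were -1.81 and 1.33. The 8 markers of conventional DCs summed to 213 in T2DM against 316 to 363 in CT Ly6C-high MCs and to 678 in T2DM against 483 to 507 in CT Ly6C-low MCs, and their part in the level of Clec10a was not tested. By single markers, 4 of the 8 (Zbtb46, Cd209a, Dpp4 and Ffar2) were lower in the first and higher in the second, Flt3 and H2-DMb2 were higher in both, and Ccr7 and Cbfa2t3 were lower in both.

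The other lectin-like genes were counted beside the receptor genes, with no test between the lists. In CT mice 2 of the 30 were DEG with a higher and 1 with a lower level in Ly6C-high MCs, and the median log2FC was -0.07. Over 8 libraries, 2 of the 30 were DEG with a higher level in Ly6C-high MCs and 6 with a lower level, against 5.37% and 6.76% of all genes, and the median log2FC of the list was -0.74. The higher genes were Cd93 (3.66), a receptor of endothelial and myeloid cells, and Cd302 (1.97). The lower genes were Klrd1 (-3.56), Klrg1 (-2.43) and Klrb1b (-2.10), which are receptors of NK cells, and Mgl2 (-2.38), Ly75 (-2.19) and Cd69 (-1.70). NK cell markers were higher in Ly6C-low libraries, as given above.

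The genes next to the receptor genes in the genome often had another subset difference. Cd69, which precedes Clec12a, had a log2FC of -1.70 (SE 0.20) over 8 libraries where Clec12a had 1.51, and Clec1b on the other side had -0.07. Clec7a (2.45) stands between Clec1a (0.04) and Olr1 (-0.33). Clec4a4, which follows Clec4a3, had a log2FC of 0.12, and Mgl2, which precedes Clec10a and shares transcript sequence with it, had -2.38. Within the Dectin-2 cluster, the order of log2FC along the chromosome was 0.74 for Clec4a1, 0.89 for Clec4a3, 2.84 for Clec4a2, 1.11 for Clec4n, 2.12 for Clec4d and 0.81 for Clec4e.

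The signalling genes that these receptors use were counted as a list of 21, all in the table. Over 8 libraries 2 of the 21 were DEG, both higher in Ly6C-high MCs, against 12.1% of all genes in either direction and 5.37% higher. These were Tyrobp, which encodes DAP12, the partner of Clec5a (log2FC 1.47, SE 0.07, adjusted p = 2.83e-06), and Card9 (1.14, SE 0.18, adjusted p = 0.0012). Tyrobp was at 9.68 and 9.72 (CT), 9.92 (T1DM) and 9.92 (T2DM) in Ly6C-high MCs, and at 8.27 to 8.38 in the 4 Ly6C-low libraries. Fcer1g, the Fc receptor gamma chain that Clec4d, Clec4e and Clec4n use, was just under the limit on fold (log2FC 0.99, SE 0.08, adjusted p = 3.58e-05). Relative to the MC gate genes, Tyrobp was at 0.66, Card9 at 0.34 and Fcer1g at 0.19. Without the limit on fold, 8 of the 21 genes were higher in Ly6C-high MCs, against 11.4% of all genes, among them the phosphatase Ptpn6 (0.70), which binds ITIMs, and the kinase Lyn (0.65), which phosphorylates them, though relative to the MC gate genes Ptpn6 was at -0.10 and Lyn at -0.15. Syk (-0.47, SE 0.08, adjusted p = 0.0018) and Malt1 (-0.87, SE 0.09, adjusted p = 0.0001), which act after the activating receptors, had the opposite sign. The median log2FC of the list was 0.38, and relative to the MC gate genes it was -0.42, with Syk at -1.27 and Malt1 at -1.67, while the median of all genes was -0.88 on that scale. None of the 21 genes was past 2-fold against CT in either subset of either diabetic model, against 8.81% to 13.8% of all genes. Tyrobp differed from the CT mean by at most 0.21 and Fcer1g by at most 0.19.

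**Figure D4:**
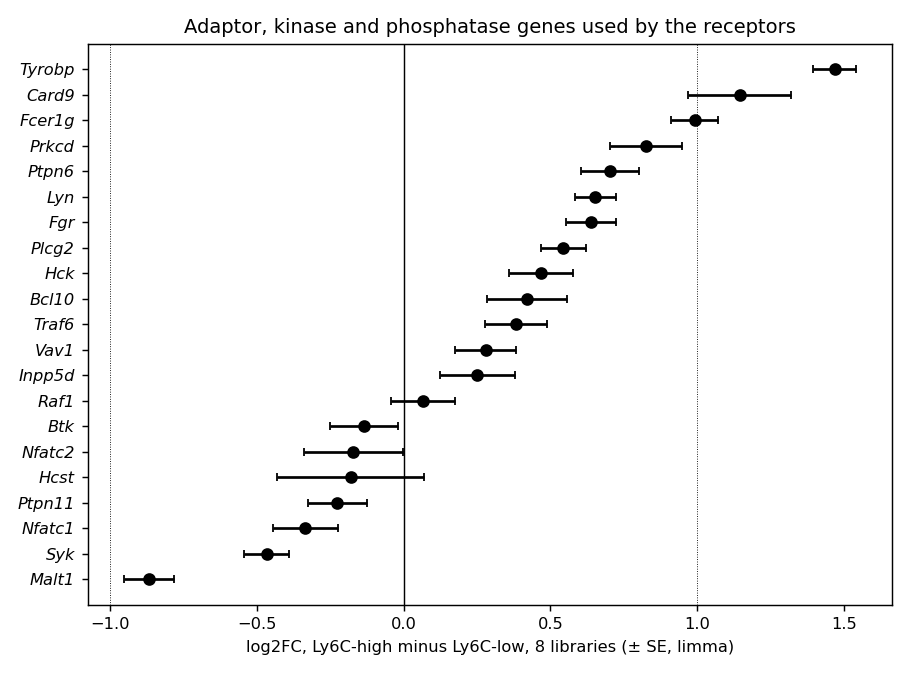
Log2FC ± SE (limma) of Ly6C-high minus Ly6C-low MCs over 8 libraries (horizontal axis, dotted lines at 2-fold) for the 21 adaptor, kinase, phosphatase and related signalling genes. Tyrobp at 1.47 and Card9 at 1.14 lie past 2-fold, Fcer1g lies at 0.99, and Syk and Malt1 lie at -0.47 and -0.87.

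For each receptor gene, the genes with the most similar values were found by the root mean square difference of log2 values over the 8 libraries, each gene centred on its own mean. Candidates were genes that averaged a log2 value of 5 or more. The nearest gene to Clec12a was Tpd52 at 0.09, followed by Pirb at 0.09, an inhibitory receptor of myeloid cells. Clec7a had Fam129b as its nearest gene at 0.14, Clec4e had Ntng2 at 0.15 and Clec4a1 had Adam17 at 0.06. Spi1, which encodes PU.1, was among the 3 genes nearest to Clec4a3, at 0.08. Clec4a2 and Clec5a had Msr1, a scavenger receptor, and Hp, which encodes haptoglobin, in common among their nearest 3, and Cd93 was second to Clec5a at 0.48. The nearest genes of Clec5a (Msr1, 0.44), Clec4n (F5, 0.44), Clec4d (Ugt1a7c, 0.31), Clec10a (Ap4m1, 0.31) and Clec4a2 (Fos, 0.30) were farther away than those of the other 5 receptor genes, which were at 0.06 to 0.15. The farther 5 were the genes with low levels, at 4.70 or less in every Ly6C-low library, below the mean asked of candidates. The other 5 stood at 5.24 or more in every library. The part of level and of the limit on candidates in these distances was not tested. These likenesses are descriptions over libraries of which 4 are Ly6C-high and 4 are Ly6C-low.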

How the data were processed

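RNA of Ly6C-high and Ly6C-low MCs was measured by RNA-Seq in 8 libraries. Per the labels and the paper, the authors ran Kallisto 0.45 on the reads, with build mm10, summarized transcripts to gene counts and TPM with tximport (1.12.3, under R version 3.6.1) and deposited log2 expression values of 16486 genes. Which of these was put on the log2 scale, the scaling between libraries and the filter on low genes are not given in the sources used here, and no counts are held, so depth and counting error are unknown. Each of the 8 columns was matched to a sample by its name, and 0 columns were left unmapped.

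Subset, diabetic and T2DM against T1DM differences were tested here on the deposited values with limma 3.58.1 (lmFit, eBayes with trend) in R 4.3.3, with Benjamini-Hochberg adjustment over 16486 genes, and calls needed an adjusted p under 0.01 and a log2FC beyond 1 in size. The script was tested on simulated data. Differences with 1 library on a side have no test. Named were the 10 members, lectin-like genes called or past 2-fold, signalling genes, neighbours, the 3 most similar genes and cell type markers. The members and lists were chosen with earlier results of these data known. Alternatives were a low-value filter (mean log2 of at least 1, 12527 genes), 1 added before log2, quantile normalization, eBayes without trend, other limits, libraries left out, a replicate block and scaling to MC gate genes. Promoters are from RefSeq GRCm38.p6, and shared 31-base sequences from GENCODE transcripts. Tables and figures were made with Python 3.11.15.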

Additional observations from a re-analysis of the deposited data

Results flagged for a closer look

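In some genes the T1DM and the T2DM library of a subset lay on opposite sides of both CT libraries. With 1 library of each model this was not tested, and it held for 4 (Ly6C-high) and 3 (Ly6C-low) of the 10 receptor genes, against 25.9% and 24.2% of all genes. In Ly6C-high MCs Clec4e was below CT in T1DM and above it in T2DM mice, a difference of T2DM minus T1DM of 1.77. Clec12a had the same order with 0.51. Clec4a1 (-0.37) and Clec7a (-0.34) had the reverse order. In Ly6C-low MCs, where the count was close to the share of all genes, T2DM was the higher model for Clec5a (2.06), Clec7a (0.67) and Clec4e (0.48). The T1DM value lay below the lower CT library by 0.65 for Clec5a, but by only 0.01 for Clec7a and 0.02 for Clec4e. The CT replicates of these genes were 0.65, 0.29 and 0.11 apart, so T1DM was close to CT for Clec7a and Clec4e.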

How the results depend on the processing

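The deposited values hold no counts, so what depth limits is unknown, and in Ly6C-low MCs the widest gaps between CT replicates were those of Clec4n (1.40), Clec4a2 (0.99) and Clec4d (0.93). In the CT test 3 receptor genes were called. The count was 5 with the low-value filter (Clec4a2 and Clec5a added), 3 with quantile normalization (Clec5a in place of Clec4a3), 6 at an adjusted p under 0.05, 0 without the eBayes trend and 0 to 0 with 1 CT library left out, where no gene of the table was called. Over 8 libraries the same 5 genes were called under 13 of 14 alternatives, with Clec4e added without the T1DM libraries and 8 genes passing with no limit on log2FC, and under the remaining one, scaling to MC gate genes, 4 of them were. Quantile normalization moved the median log2FC of all genes from -0.09 to 0.02 in CT mice and from -0.08 to 0.04 over 8 libraries.

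Relative to the MC gate genes (chosen after seeing the data) the log2FC turned in CT mice to -0.12 for Clec4a1, -0.059 for Clec4e and -0.10 for Clec4n, and over 8 libraries to -0.059 for Clec4a1 and -0.45 for Clec10a.

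The deviations of same-numbered CT libraries had a correlation of 0.0089 over all genes, so they share only a number. With the replicate number as a block, 0 receptor genes were called in CT mice, where 1 residual degree of freedom is left, and 5 over 8 libraries.

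Differences that were not called turned sign as follows, and the cause was not tested. In diabetic minus CT Ly6C-high MCs, Clec4a1 was at -0.12 without the T1DM libraries, and without the T2DM libraries Clec4e was at -0.72, Clec5a at -0.023, Clec7a at 0.089 and Clec12a at -0.19. In Ly6C-low MCs Clec4d was at 0.13 without the T1DM libraries, and without the T2DM libraries Clec4a2 was at -0.14, Clec4e at -0.079, Clec4n at 0.66, Clec5a at -0.98 and Clec7a at -0.16. In the difference of subset differences, Clec4a1 was at 0.0096 with quantile normalization, and without the T2DM libraries Clec4a1 was at 0.13, Clec4a2 at 0.15, Clec4e at -0.64, Clec4n at -0.23 and Clec7a at 0.25. With 1 CT library left out, the ranges were -0.028 to 0.94 for Clec4n in Ly6C-high MCs, -0.61 to 0.32 for Clec4d, -0.92 to 0.48 for Clec4n and -0.27 to 0.38 for Clec5a in Ly6C-low MCs, and for the difference of subset differences -0.048 to 0.0093 for Clec4a1, -0.88 to 0.11 for Clec4a2, -0.050 to 0.062 for Clec4e and -0.021 to 1.38 for Clec4n.

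The count past 2-fold in T1DM minus CT Ly6C-low MCs was 0 to 2 with 1 CT library left out. In T2DM minus CT Ly6C-low MCs it was 2 to 4 with 1 CT library left out and 2 with 1 added before log2.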

Other observations

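Lectin-like receptors of NK cells were lower in T2DM than in CT libraries of both subsets. The log2 differences from the CT mean in Ly6C-high and Ly6C-low MCs were -1.58 and -1.94 for Klrb1b, -2.25 and -1.35 for Klrg1, and -1.38 and -1.36 for Klrd1, from 1 library each and with no test. T2DM against T1DM over both subsets, Klrb1b was a DEG (log2FC -2.87, SE 0.32, adjusted p = 0.0031, limma), and so was Colec12, a scavenger receptor, in the other direction (2.90, SE 0.31, adjusted p = 0.0027). Each model was a single pool of mice, so this test does not measure the spread between mice. The 6 NK cell markers summed to 21.9 in T2DM against 70.7 to 70.9 in CT Ly6C-high MCs, and to 130 against 523 to 541 in Ly6C-low MCs. The part of NK cells in these differences was not tested.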
